A study of Mus musculus with 39 samples.

Results

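The stearoyl-CoA and front-end fatty acid desaturases, the genes Scd1, Scd2, Scd3, Fads1, Fads2 and Fads3, were followed over 5 diets and 11 time labels in samples from brown fat of the mouse. They are 6 of the 29411 gene symbols in the deposited probe annotation, and all 6 are among the 24723 genes with a probe kept for testing. They were selected with the measured difference between the high fat and the low fat diet already known, so that difference is described and not tested. Scd1 was the member that stood apart. Its level was lower on the high fat diet than on the low fat diet at 10 of 10 shared time points as the arrays are labelled, and no dose of the KAL formulation moved it from the high fat level past the test.

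C57BL/6J mice were weaned at 3 to 4 weeks of age and fed either a low fat control diet (LFC) with 10% of its calories from fat or a high fat diet (HFC) with 60% of its calories from fat and added sucrose. In 3 further groups the high fat diet was given with the KAL formulation (KAL-1 in the labels), a plant preparation, at 5, 20 or 75 µg (HF5, HF20 and HF75). Each diet had 30 animals, of which 5 were killed at an interval. RNA of each diet and time label was read on 1 single-colour array, 39 in all. LFC was measured on 10 arrays (Day 1, 6, 10 and 14 and Week 0, 3, 9, 12, 15 and 18), HFC on 11 (the same times and Week 6) and each dose on 6 (Week 3, 6, 9, 12, 15 and 18). Weeks were counted from Day 14, so Day 14 and Week 0 lie on the same day. There was thus 1 sample per diet and time label, and the spread within a diet was a spread over time points. The SDs here measure that spread. The p-values of the diet comparisons rest on the scatter left after diet and time label, pooled over all arrays and moderated over probes. Those of the slopes rest on the scatter left after diet and slope. The number of arrays limits the precision of both. The HF20 array of Week 12 was grouped by its title and source name, since its diet characteristic gives the high fat diet alone.

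The labels call the samples brown infiltrating macrophages from the stromal vascular cells of brown fat. The markers did not give a macrophage preparation alone. Ucp1, the uncoupling protein that defines brown adipocytes, had a level above the array's 75th percentile on every array but LFC Day 10 (-3.16) and HFC Week 12 (-3.18), and Adipoq, the adipocyte hormone adiponectin, did so on every array (1.12 to 7.04). All 11 macrophage markers were measured as well, with a summed level of 2.42 to 7.13. The samples are therefore called brown fat here, a name that the Ucp1 levels of LFC Day 10 and HFC Week 12 go against, and in such bulk RNA fewer cells of a type and less RNA per cell cannot be told apart. HF20 Week 15, HF5 Week 12 and HFC Week 12 stood apart from the other arrays with 71.4%, 18.6% and 11.1% of their spots flagged. On HF20 Week 15 98.03% of spots were well above background, against a median of 57.3%, and the summed macrophage and general adipocyte levels were the lowest of the 39 arrays. Another 9 arrays, of all diets, carry BA or BAT written as 1 token in their titles, in place of the SVC of the other titles. Whether they hold another preparation of brown fat was not tested. Several results that turn on them are given without them too.

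Desaturases put double bonds into fatty acid chains bound to coenzyme A. The stearoyl-CoA desaturases turn saturated stearate and palmitate into the monounsaturated oleate and palmitoleate, the main chains of stored triglyceride. Scd1 is the form of adipose tissue and liver, where carbohydrate and insulin raise it and dietary polyunsaturated fat lowers it, while Scd2 is known from brain and developing tissues and Scd3 from skin and the Harderian gland. Front-end desaturases act between an existing double bond and the carboxyl end of the chain. Fads2 takes the first and Fads1 a later step in the making of arachidonic acid and of the long polyunsaturated chains of fish oil, and Fads3 acts on sphingoid bases.

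All members lie on mouse chromosome 19, in 2 clusters of the RefSeq annotation of GRCm38.p6. The Fads cluster spans 156020 bases, with Fads3 at chr19:10040855-10060113, Fads2 at chr19:10062765-10101503 and Fads1 at chr19:10182877-10196874. The Scd cluster spans 204422 bases, with Scd3 at chr19:44203288-44244016, Scd2 at chr19:44293676-44306864 and Scd1 at chr19:44394450-44407709. Scd4 lies between Scd2 and Scd1 at chr19:44333326-44346743. Its probe was well above background on 3 arrays only and was not tested.

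Each gene was read by probes of 60 bases, and the first 30 bases are shown because closely related genes can only be told apart where their probes differ. Scd1, Scd2, Scd3, Fads1 and Fads2 had 1 probe each and Fads3 had 2, of which the brighter was used and the other is given beside it. A probe named LOC677051 in the annotation also lists the Scd1 transcript and was followed as a second reading of Scd1. Over the 28 pairs of these probes the longest run of bases in common, on either strand, was 8, and among the 6 pairs of the Scd1, Scd2, Scd3 and LOC677051 probes it was 6. The probes were compared with one another and not with the transcripts of the other genes. These runs therefore do not show that a probe reads its gene alone.
Scd1: actcctgggctaagtatctgacagtctcac
LOC677051: aagacatccgtcctgaaatgaaagaagata
Scd2: acatttggggatcctctgcagaggagtatt
Scd3: ttcagggtaggtgtctcaagccaaatccaa
Fads1: gagaatataggaacatgcccggagagacct
Fads2: gtgagttcactgaagaagtctggggagctg
Fads3: taaaatgacacggtgagcatagcatgtttt
Fads3 other probe: tacttctaagccctgttatatatacttgta

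The level of a probe is the log2 of its signal minus the 75th percentile of its array on the same scale, so that 0 is the brightness of the upper quartile of the array. A difference of 1 is a 2-fold change. Levels are compared between arrays and not between probes.

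On LFC the Scd1 level had its lowest value on Day 10 (5.02), a median of 5.66 and its highest on Week 9 (7.91). On HFC it was lowest on Day 1 (1.08), with a median of 2.27 and its highest on Week 6 (5.42), a time with no LFC array. The groups overlapped only through that HFC Week 6 array, since every other HFC array lay below every LFC array. The mean level was 6.07 ± 1.00 (SD, n = 10) on LFC and 2.65 ± 1.46 (SD, n = 11) on HFC.

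At the shared times the difference of HFC from LFC ran from -5.11 to -2.41 on the log2 scale, with a median of -3.63. The fit over all arrays, with the time label as a block, gave a difference of -3.49 (SE 0.63), which is 11.3-fold, and of -3.70 to -3.32 with any 1 time label left out. At Day 14, the time of the widest difference, the LFC and HFC columns of the deposited fold-change table run opposite to the labels of the scanner files, and the labels were followed. Without Day 14 Scd1 was lower on HFC at 9 of 9 times (-4.34 to -2.41) and the fit gave -3.32 (SE 0.67). Over all 29418 probes with a value at these times 0.469% were lower at all 10, a share printed as background only, since the gene was selected on this contrast. Where both arrays were scanned on the same date the mean difference was -3.70 (n = 6), and where they were not it was also -3.70 (n = 4).

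**Figure D1:**
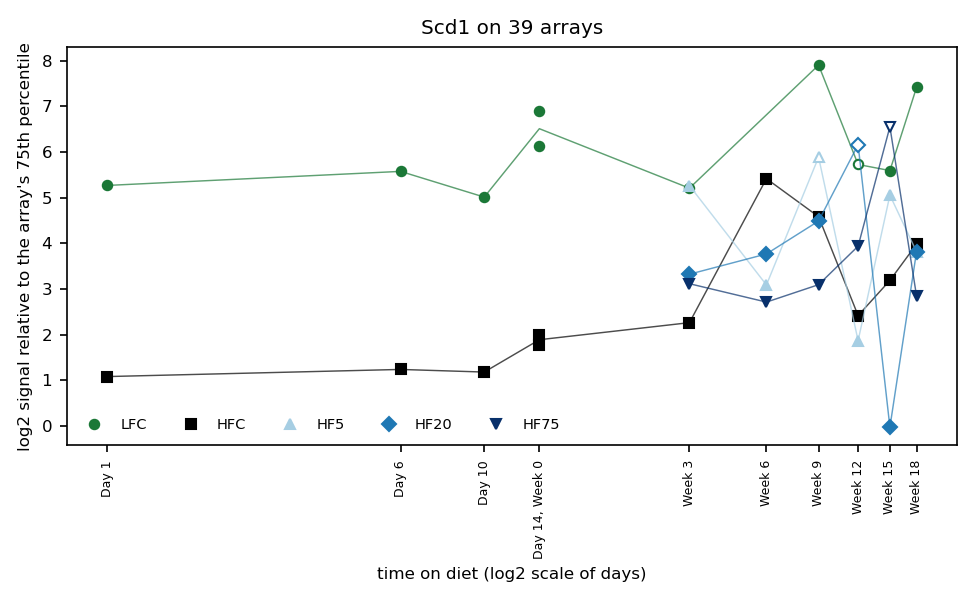
Scd1 level (log2 signal relative to the array's 75th percentile) against time on diet (log2 scale of days) for LFC, HFC, HF5, HF20 and HF75. Each symbol is 1 array, open symbols are saturated spots, and a line joins the mean per day of a diet. The LFC arrays lie between 5.02 and 7.91 and the early HFC arrays between 1.08 and 1.999.

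The difference was wider at the 5 early times (-5.11 to -3.83) than at the late times with unsaturated spots (-3.43 to -2.41). The late difference of Week 12 (-3.31) may be wider than measured, since the LFC spot was saturated, and the gap between early and late was not tested. From Day 1 to Week 0 the HFC level was 1.08, 1.24, 1.18, 1.78 and 1.999, and from Week 3 to Week 18 it was 2.27, 5.42, 4.59, 2.42, 3.19 and 3.98. No late HFC array was as low as any early one, and how many of all probes separated in this way was not counted. On LFC the early arrays (5.02 to 6.89) and the late arrays (5.21 to 7.91) overlapped. In the 21 arrays of both diets the slope of Scd1 was 0.35 per doubling of days (SE 0.10), with an unadjusted p of 0.00273 and an adjusted p of 0.203 (limma), and did not pass the test. Of all probes 36.4% had a slope above 0 there. Whether the slope differed between LFC and HFC was not tested.

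The KAL doses were measured from Week 3 on. HF5 arrays had a lowest level of 1.87 (Week 12), a median of 4.44 and a highest of 5.89 (Week 9). HF20 arrays ran from -0.02 (Week 15) over a median of 3.79 to 6.16 (Week 12), and HF75 arrays from 2.72 (Week 6) over 3.11 to 6.55 (Week 15). Each dose thus overlapped both HFC and LFC, but HF20 and HF75 reached LFC only through 1 array titled BA or BAT each. Without those titles the highest level was 4.49 on HF20 and 3.94 on HF75, below the lowest LFC array (5.02), and 5.27 on HF5.

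Over Week 3 to Week 18 the mean levels of Scd1 ran from HF20 (3.59 ± 2.03, SD, n = 6) over HFC (3.64 ± 1.25, n = 6), HF75 (3.71 ± 1.46, n = 6) and HF5 (4.17 ± 1.52, n = 6) to LFC (6.37 ± 1.20, n = 5). The place of HF20 rests on Week 15 (-0.02), the array with 71.4% of its spots flagged. By the median HF20 (3.79) lay above HFC (3.59) and HF75 (3.11) and below HF5 (4.44). Neighbours in the order of means lay closer than 1 SD up to HF5, and LFC stood more than 1 SD above it. Spots of Scd1 were saturated on HF5 Week 9, HF20 Week 12, HF75 Week 15 and LFC Week 12, so those 4 levels are lower bounds.

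Whether the formulation moved the desaturases from the high fat level was asked of each dose against HFC, a comparison that shares the HFC arrays with the known contrast. None of the 6 members passed it (limma, Benjamini-Hochberg over 34043 probes, adjusted p under 0.05, two-sided), and the share of all probes that did was 0.0% at each dose. Before adjustment 498, 907 and 1210 probes had a p under 0.05 (1.46%, 2.66% and 3.55%). None of them was a probe named for a member, but the LOC677051 probe was among the 907 of HF20. The Scd1 difference from HFC was 0.87 (SE 0.78) for HF5, 0.29 (SE 0.78) for HF20 and 0.41 (SE 0.78) for HF75, each with an adjusted p of 0.998 or more (limma). Taken directly at the 6 shared times, the mean difference from HFC was 0.52 for HF5, -0.05 for HF20 and 0.07 for HF75. Scd1 was above HFC at 3, 2 and 3 of those 6 times.

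These small differences turned with the arrays and the block used. Without the 9 arrays titled BA or BAT HF5 differed from HFC by -0.01, HF20 by -0.40 and HF75 by -0.54. Without the time label as a block HF5 differed by 1.52. That value sets HF5 against all 11 HFC arrays (mean 2.65), also those from before any dose was measured. Over Week 3 to Week 18 the HFC mean was 3.64. With the scan date in place of the time label HF75 differed by 1.27. Without HF20 Week 12, the array with the conflicting diet label, the HF20 difference was -0.43, and without HF20 Week 15 it was 1.15. Adipoq was high (5.67 to 7.04) on 7 of those 9 arrays, all of Week 9 to Week 18, and on HFC Week 6 (6.51). Its part in the Scd1 differences was not tested. Scan dates were not spread evenly over the diets either. Where the arrays shared a scan date HF75 was above HFC at 2 of 2 times, and where they did not at 1 of 4, while all 6 pairs of HF5 and HFC shared one.

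Against LFC, whose arrays the known contrast also used, Scd1 was lower at every dose. The difference was -2.63 (SE 0.81) for HF5, with an unadjusted p of 0.003 and an adjusted p of 0.888 (limma). It was -3.20 (SE 0.81) for HF20, with an adjusted p of 0.492, and -3.08 (SE 0.81) for HF75, with an adjusted p of 0.330 (limma). The HF20 value includes Week 15, the array with most spots flagged, where the difference was widest (-5.62). With any 1 time label left out the HF20 difference ran from -3.95 to -2.70. Without the arrays titled BA or BAT the difference was -3.51 for HF5 and -4.03 for HF75, and that of HF20 is not given here. The measured Scd1 level was below LFC at 4 of 5 shared times in each dose, the exceptions being Week 3 for HF5, Week 12 for HF20 and Week 15 for HF75. The order at Week 12 was not measured for HF20, since both spots were saturated, and the LOC677051 probe had 1.40 on HF20 and 3.14 on LFC there. For HF5 the level of Week 9 is a lower bound. Of the 27039, 10837 and 33773 probes with values at all 5 times, 3.74%, 6.15% and 4.92% were lower at every one. Where the arrays shared a scan date Scd1 was lower at 3 of 3 times for HF5 and at 2 of 3 for HF20, the other being Week 12, and for HF75.

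None of the 6 members passed the test against LFC, and 0.0% of all probes did so at each dose. The unadjusted p was under 0.05 for 2 members (Scd1 and Scd2) for HF5, where 5.3% of all probes were, and for Scd1 alone of the members for HF20 and HF75, where 10.1% and 10.6% of all probes were. Those shares come from 1803, 3429 and 3606 probes. The members were counted by their brightest probe. The other Fads3 probe also had an unadjusted p under 0.05 (limma) at each dose, as given below. For HF75 the call depended on Week 15: without that time point the Scd1 difference from LFC was -3.87 with an adjusted p of 0.0443 (limma). With array weights it was -3.34, with an adjusted p of 0.0103.

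**Figure D2:**
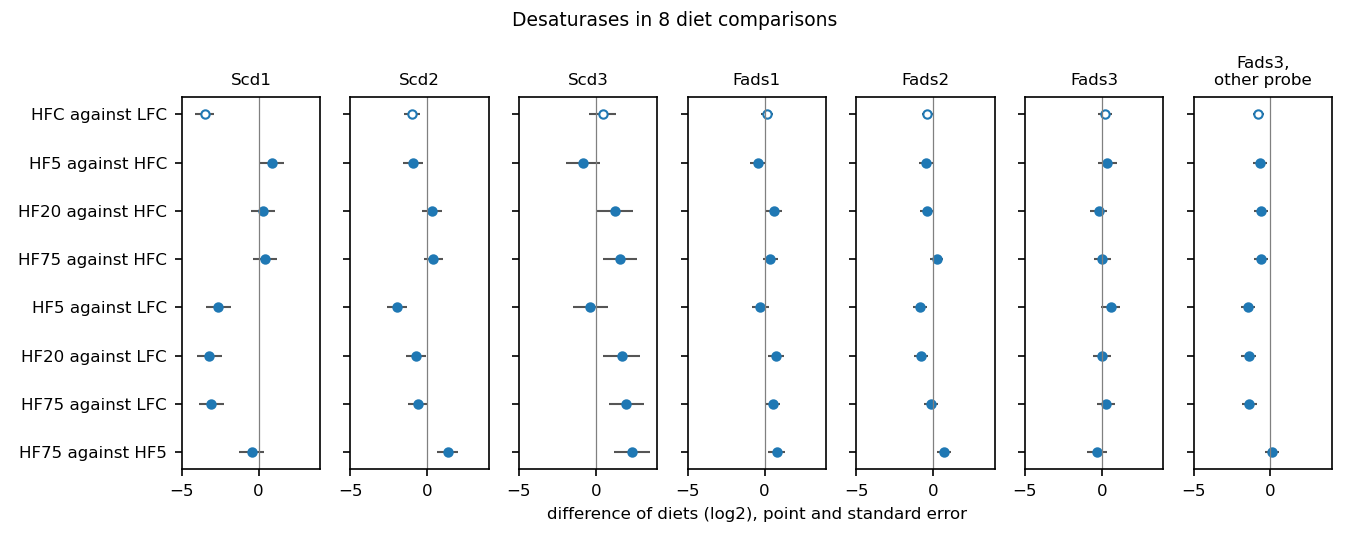
Differences between diets (log2; point and standard error from the fit over all arrays) for each member and the other Fads3 probe in 8 comparisons. Open points mark HFC against LFC, which is not tested. Scd1 lies between -3.49 and -2.63 in all comparisons against LFC and between 0.29 and 0.87 in those against HFC.

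The highest against the lowest dose shares no array with the known contrast. Scd1 differed by -0.45 (SE 0.83) between HF75 and HF5, and by 0.61 with the scan date in place of the time label. It was higher in HF75 at 2 of 2 times with a shared scan date and lower at 4 of 4 without one. None of the 6 members passed the test or had an unadjusted p under 0.05 (limma). Over all probes 0.0% passed and 1232 (3.62%) had an unadjusted p under 0.05. In the 18 arrays of the doses the Scd1 slope over Week 3 to Week 18 was 0.00 per doubling of days (SE 0.56), and -0.52 without the arrays titled BA or BAT.

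The LOC677051 probe followed Scd1 (r = 0.78, rho = 0.81 over 37 arrays, which share diets, dates and cell makeup). It was lower on HFC than on LFC at 10 of 10 shared times, with a fitted difference of -2.93 (SE 0.56). On LFC its level ran from -2.42 (Day 1) over a median of -0.07 to 3.14 (Week 12), and on HFC from -4.64 (Week 0) over -3.06 to -0.72 (Day 14). The probe was dim, well above background on 32 of 39 arrays, and its values on HF5 Week 12 and HF20 Week 15 were dropped as flagged. Read by it, the differences from HFC were 1.04 (SE 0.75) for HF5, 1.55 (SE 0.75) for HF20 and 0.67 (SE 0.70) for HF75, with an adjusted p of 0.998 or more (limma). The HF20 difference had an unadjusted p of 0.0477 (limma). HF20 lay 5.20 above HFC at Week 12, whose HF20 array is titled BA or BAT and has the conflicting diet label. At the other times with a value the difference ran from -0.92 to 1.72. A fit of this probe without that array is not given here.

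**Figure D3:**
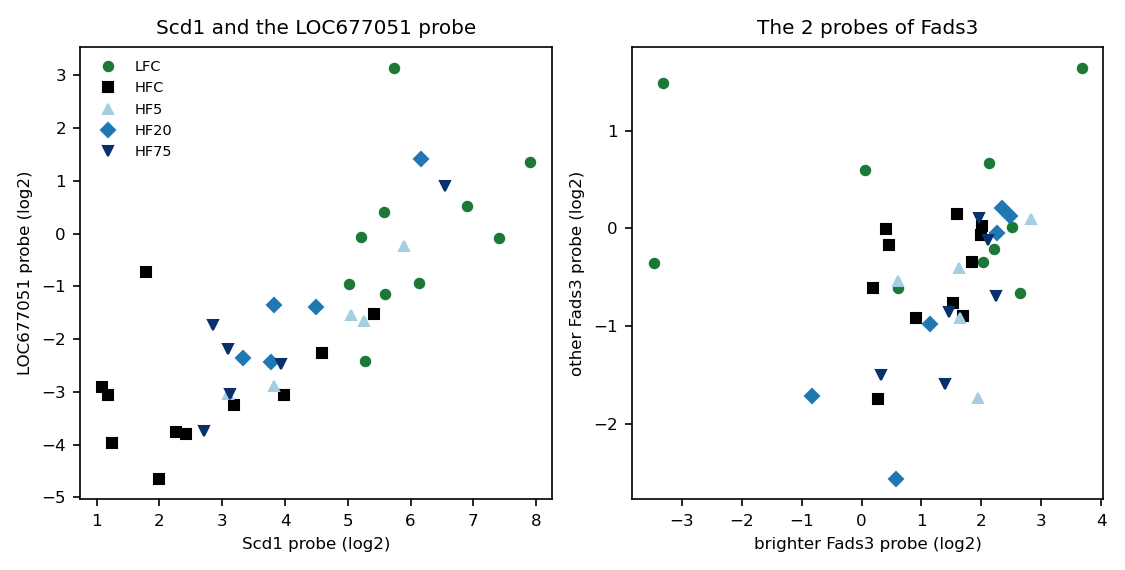
Levels (log2) of probe pairs on each array, coloured by diet. Left, the LOC677051 probe against the Scd1 probe over 37 arrays (r = 0.78). Right, the other Fads3 probe against the brighter Fads3 probe over 38 arrays (r = 0.11), where LFC Day 1 and LFC Week 18 lie far to the left.

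Scd2 was read well above background on all 39 arrays, and its level did not go with that of Scd1 (r = 0.05 over 39 arrays). On LFC it ran from 1.95 (Week 15) over a median of 3.54 to 5.72 (Week 12, a saturated spot), and on HFC from 0.42 (Day 14) over 3.01 to 4.59 (Week 3). The diets overlapped, and HFC was lower at 5 of 10 shared times. The fitted difference of HFC from LFC was -1.01 (SE 0.52), and -0.36 (SE 0.52) without the arrays titled BA or BAT and HFC Week 6.

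HF5 was the dose with the lowest Scd2. Its levels from Week 3 to Week 18 had a lowest value of 0.34 (Week 15), a median of 1.73 and a highest of 4.61 (Week 6), and it lay below LFC at 5 of 5 shared times, as 3.74% of the 27039 probes with values at those times did. The difference from LFC was -1.95 (SE 0.66), with an unadjusted p of 0.00634 and an adjusted p of 0.888 (limma). HF20 (median 2.89, 1.59 to 4.99) and HF75 (median 3.28, 1.39 to 5.31) lay higher and overlapped with HF5. The HF75 level exceeded that of HF5 at 5 of 6 times, by 1.34 in the fit (SE 0.68, unadjusted p = 0.0569, adjusted p = 1.00, limma).

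In order of the Week 3 to Week 18 means, Scd2 ran from HF5 (1.98 ± 1.5, SD, n = 6) over HFC (2.85 ± 1.41), HF20 (3.22 ± 1.38) and HF75 (3.32 ± 1.30, n = 6 each) to LFC (3.78 ± 1.51, n = 5). All neighbours in this order lay within 1 SD of each other. At Week 6 the HFC array had 1.18 while HF5, HF20 and HF75 had 4.61, 4.99 and 5.31. The difference of HF5 from HFC was -0.94 (SE 0.64), and -1.92 (SE 0.65) without that HFC array and those titled BA or BAT, with an adjusted p of 0.403 (limma). Over the arrays of the doses Scd2 had a slope of -1.02 per doubling of days (SE 0.41), with an unadjusted p of 0.0231 and an adjusted p of 0.491 (limma).

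Scd3 was dim, well above background on 28 of 39 arrays, and its level varied most. It ran on LFC from -4.83 to -0.14 (median -3.20) and on HFC from -5.87 to -0.49 (median -1.82), and HFC lay below LFC at 5 of 10 shared times. The fitted difference of HFC from LFC was 0.44 (SE 0.89), and -0.37 (SE 0.79) without the arrays titled BA or BAT. On HF5 it was well above background on 2 of 6 arrays. The highest levels came from HF20 Week 18 (2.27), HF75 Week 18 (2.23) and HF75 Week 12 (1.25).

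The differences of Scd3 were large beside those of the Fads genes and so were their errors. HF75 lay above HFC by 1.55 (SE 1.102). It lay above HF5 by 2.37 (SE 1.17, unadjusted p = 0.0524, adjusted p = 1.00, limma). The slope of Scd3 over the arrays of the doses was 1.48 per doubling of days (SE 0.73, unadjusted p = 0.0583, adjusted p = 0.539, limma). With normexp background correction that slope was 0.10, and without the arrays titled BA or BAT it was 2.28, with an adjusted p of 0.0757. The Week 3 to Week 18 means ran from HF5 (-3.56 ± 1.95, SD, n = 6) over HFC (-3.25 ± 2.09, n = 6), LFC (-2.39 ± 1.82, n = 5) and HF20 (-1.62 ± 2.58, n = 5, Week 15 dropped as flagged) to HF75 (-1.19 ± 2.77, n = 6), all neighbours within 1 SD.

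**Figure D4:**
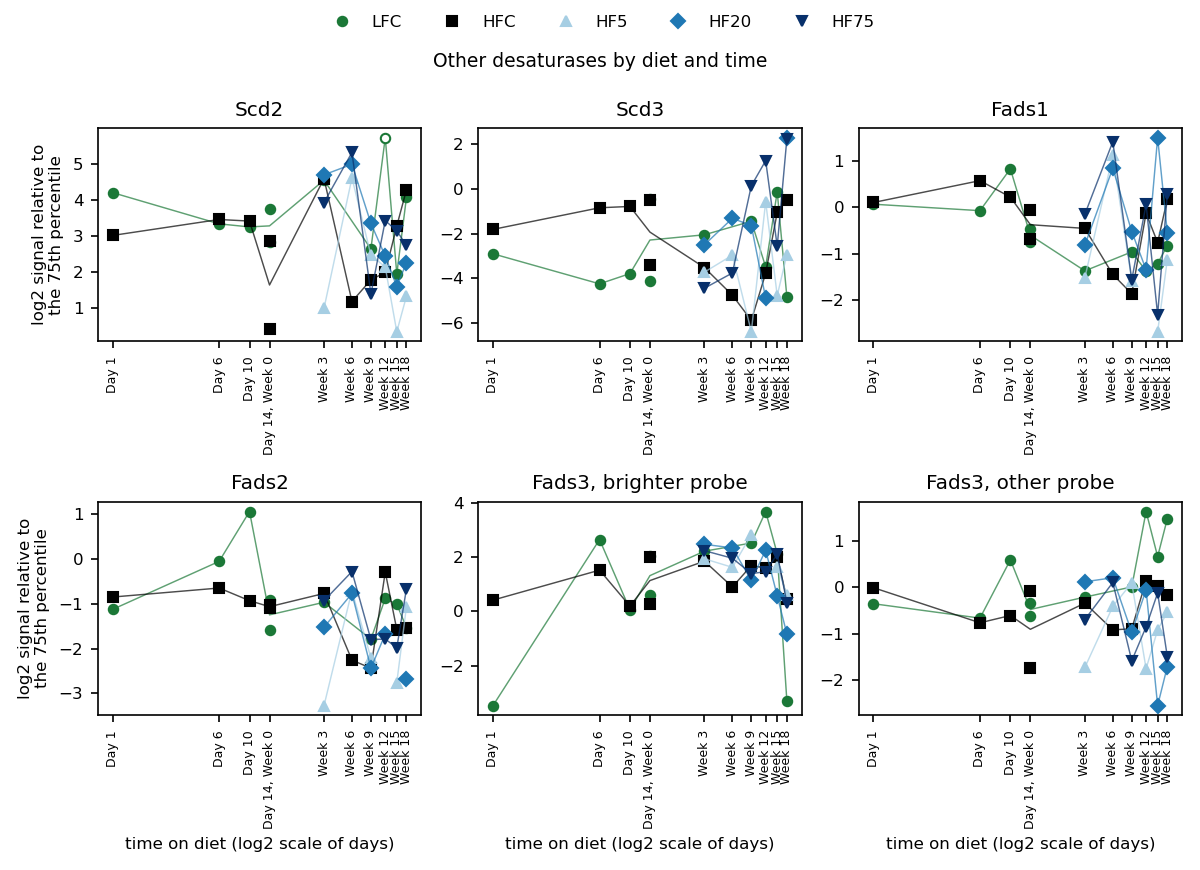
Levels (log2 signal relative to the array's 75th percentile) of Scd2, Scd3, Fads1, Fads2 and both Fads3 probes against time on diet (log2 scale of days), with 1 symbol per array and a line through the mean per day of each diet. Open symbols are saturated spots. The diets overlap in every panel, and Scd3 ranges from -6.38 to 2.27.

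Fads1 did not separate the control diets. Its level on LFC ran from -1.37 (Week 3 and Week 12) over a median of -0.78 to 0.82 (Day 10), and on HFC from -1.86 (Week 9) over -0.13 to 0.57 (Day 6). HFC was the higher at 8 of 10 shared times, with a fitted difference of 0.15 (SE 0.40). Among the late arrays the order of means was HF5 (-1.16 ± 1.39, SD, n = 5), LFC (-1.15 ± 0.25, n = 5), HFC (-0.75 ± 0.78, n = 6), HF75 (-0.38 ± 1.34, n = 6) and HF20 (-0.15 ± 1.08, n = 6). HF20 lay above LFC at 5 of 5 shared times, by 0.76 in the fit (SE 0.51, adjusted p = 0.582, limma) and by 0.22 (SE 0.46) without HF20 Week 15, the array with most spots flagged. Of the probes with values at those times, 3.02% were higher at all 5.

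On LFC Fads1 was lower late than early. Every LFC array from Week 3 on (-1.37 to -0.82) lay below every earlier one (-0.74 to 0.82), while on HFC the early (-0.68 to 0.57) and the late arrays (-1.86 to 0.17) overlapped. How many of all probes separated in this way was not counted. Over both diets the slope was -0.19 per doubling of days (SE 0.07), with an unadjusted p of 0.0098 and an adjusted p of 0.282 (limma). Of all probes 63.6% had a slope below 0 in these arrays, with a median slope of -0.05. Among the members Fads1 and Scd1 were the 2 with an unadjusted p under 0.05 for this slope, where 4057 probes (11.9%) had one. None of the 6 members and 0.0% of all probes passed the test.

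Fads2 ran close to Fads1 (r = 0.68, rho = 0.72 over 37 arrays). On LFC it had a lowest level of -1.79 (Week 9), a median of -0.99 and a highest of 1.06 (Day 10, an array on which Ucp1 was low), and on HFC a lowest of -2.44 (Week 9), a median of -1.03 and a highest of -0.29 (Week 12, the other such array). The fitted difference of HFC from LFC was -0.38 (SE 0.34). HF5 (-2.002 ± 1.095, SD, n = 5) and HF20 (-1.82 ± 0.76, n = 5) had the lowest late means, followed by HFC (-1.48 ± 0.83, n = 6), HF75 (-1.24 ± 0.71, n = 6) and LFC (-1.23 ± 0.40, n = 5), with all neighbours within 1 SD. The HF5 and HF20 values rest on 5 arrays each, since HF5 Week 12 and HF20 Week 15 were dropped as flagged.

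Against LFC the Fads2 difference was -0.85 (SE 0.46) for HF5, -0.79 (SE 0.46) for HF20 and -0.14 (SE 0.43) for HF75, with adjusted p of 0.888, 0.536 and 0.910 (limma). HF20 lay below LFC at the 4 shared times with a value, with differences from -1.15 to -0.56. Of the probes with values at all 5 shared times 6.15% were lower at every one. HF75 exceeded HF5 at 5 of 5 shared times with a value for both Fads1 and Fads2. At 4 of these times the arrays had different scan dates. The fit gave differences of 0.81 (SE 0.55) and 0.71 (SE 0.47), and neither passed the test (adjusted p = 1.00, limma). Of all probes 58.2% had a difference above 0 here. Of those with values at all 6 times 1.44% were higher at every one.

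The 2 probes of Fads3 gave different answers. By the brighter probe, LFC ran from -3.47 (Day 1) over 2.07 to 3.68 (Week 12), and HFC from 0.20 over 1.52 to 2.02. The spot was not well above background on LFC Day 1 and LFC Week 18 (-3.31), and the fitted difference of HFC from LFC was 0.21 (SE 0.46). By the other probe LFC ran from -0.67 over -0.10 to 1.65 and HFC from -1.75 over -0.34 to 0.15, and HFC was lower by 0.78 (SE 0.37) in the fit and lower at 8 of 10 shared times.

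Against LFC the brighter probe differed by 0.56 (SE 0.63) for HF5, 0.00 (SE 0.59) for HF20 and 0.26 (SE 0.59) for HF75. The other probe differed by -1.47, -1.43 and -1.37 (SE 0.47 each), with unadjusted p of 0.00405, 0.00526 and 0.00697 and adjusted p of 0.888, 0.492 and 0.343 (limma). It lay below LFC at 4 of 5 shared times for HF5 and HF20 and at 5 of 5 for HF75, as 4.92% of probes did. Over 38 arrays the probes had r = 0.11 and rho = 0.38, and r = 0.54 without the 2 arrays farthest from the median of the brighter probe.

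By the brighter probe the late means of Fads3 ran from HF20 (1.33 ± 1.30, SD, n = 6) over HFC (1.42 ± 0.61, n = 6), LFC (1.45 ± 2.73, n = 5) and HF75 (1.58 ± 0.71, n = 6) to HF5 (1.73 ± 0.80, n = 5), all within 1 SD of each other. Its slope over the arrays of the doses was -0.82 per doubling of days (SE 0.30), with an unadjusted p of 0.014 and an adjusted p of 0.471 (limma). The other probe had a slope of -0.38 (SE 0.32). Fads3 and Scd2 were the 2 members with an unadjusted p under 0.05 for that slope, where 3211 probes (9.43%) had one. None of the 6 members and 0.0% of all probes passed the test.

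The genes that work with the desaturases were described over 48 genes in 6 lists, of which 45 had a probe kept. In HFC against LFC most of the 8 genes listed under saturated chain synthesis stood together with Scd1, and Acacb and Acsl1 did not. The 8 estimates were all below 0, as were 45.8% of all probes. Their median was -2.15 against 0.05 over all probes. They were lowest for Acly (-2.58, SE 0.49), which makes cytosolic acetyl-CoA from citrate, Acaca (-2.37, SE 0.88), which carboxylates it, and Me1 (-2.33, SE 0.59), the malic enzyme that supplies NADPH. Acss2 (-2.23), Fasn, the fatty acid synthase (-2.06), and the citrate carrier Slc25a1 (-1.80) followed, while Acacb (-0.31) and Acsl1 (-0.004) lay near 0. These lists were chosen with that contrast known.

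The level of Acly on LFC ran from 1.51 (Week 18) to 5.94 (Week 3), and on HFC from 0.35 (Day 6) to 2.87 (Week 9). Me1 ran from 3.03 to 5.803 on LFC and from 0.34 to 4.19 on HFC. Both genes overlapped between the diets, Acly through the LFC arrays of Day 10, Week 0 and Week 18. No gene of this list passed the test in a dose comparison. Against LFC the list median was -1.60 for HF5, -1.16 for HF20 and -1.48 for HF75, against 0.04, 0.06 and 0.11 over all probes. Acly had the smallest unadjusted p of the list, 0.000685 for HF5 (difference -2.39, SE 0.62, adjusted p = 0.888, limma).

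**Figure D5:**
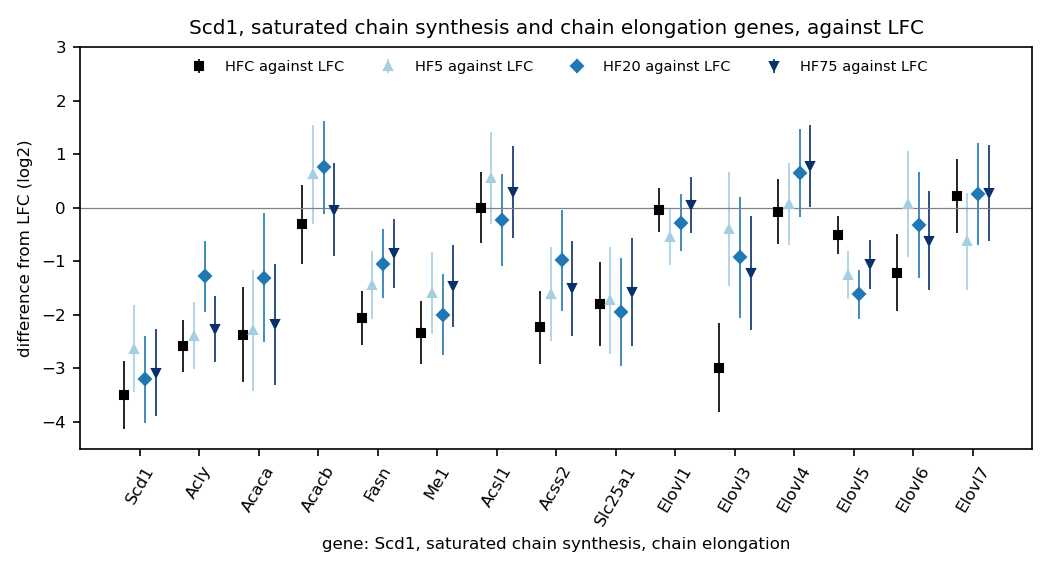
Differences from LFC (log2, point and standard error from the fit over all arrays) of Scd1, 8 genes of saturated chain synthesis and 6 elongases on HFC, HF5, HF20 and HF75. Scd1, Acly, Acaca, Fasn, Me1, Acss2 and Slc25a1 lie below 0 on all 4 diets, and Elovl3 is lowest on HFC (-2.98).

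Among the 6 elongases measured, the enzymes that lengthen chains before or after desaturation, Elovl3 had the widest difference. This elongase of brown fat and skin was lower on HFC than on LFC by 2.98 (SE 0.83) in the fit, and was well above background on 4 of 11 HFC arrays. On HF5 it was higher than on HFC by 2.58 (SE 1.03, unadjusted p = 0.0184, adjusted p = 1.00, limma). Its HFC level ran from -8.50 (Week 12, the array on which Ucp1 was low) to -0.30 (Week 6), and its HF5 level from -2.02 (Week 12) to 1.79 (Week 15). Elovl5, which lengthens the products of Fads2, differed from LFC by -1.26 for HF5, -1.62 for HF20 and -1.06 for HF75 (SE 0.45 each), with unadjusted p of 0.00952, 0.00128 and 0.0264 and adjusted p of 0.888, 0.492 and 0.415 (limma).

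The remaining lists lay nearer the background. Of the 13 regulators 11 were below 0 in HFC against LFC, with a median of -0.39, where 45.8% of all probes were below 0. Mlxipl, the carbohydrate-responsive factor, had -1.86 (SE 0.90), Thrsp, a protein of fat synthesis, had -1.25 (SE 0.51) and Insig1, which holds back the sterol regulatory factors, had -1.16 (SE 0.58), while Srebf1 itself had -0.49 (SE 0.62). Of the 10 genes that use unsaturated chains 9 were below 0, with a median of -0.40, and Agpat2, an acyltransferase of triglyceride synthesis, was lowest (-1.51, SE 0.84). The 5 electron carriers measured had a median of -0.16, with Cyb5b at -1.03 (SE 0.46), and the 3 other desaturases a median of 0.02. Over all lists 0 of 45 genes passed the test in each of the 9 tested comparisons. The number with an unadjusted p under 0.05 (limma) ran from 0 in HF75 against HFC and in HF75 against HF5 to 7 in the slope over LFC and HFC, beside 3.55%, 3.62% and 11.9% of all probes.

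The genes most like each member were the 3 with the highest correlation of level over the arrays, among probes well above background on all 39. For Scd1 they were LOC677317 (r = 0.89), Me1 (r = 0.87) and Mod1 (r = 0.87), and all 3 read the same gene. Mod1 is an older symbol of Me1, and the LOC677317 probe is identical to the Me1 probe in 60 of 60 bases, as their first 30 show.
Me1: cttcctaatgacaacttgtgactaacggtt
LOC677317: cttcctaatgacaacttgtgactaacggtt
Mod1: attaatttactggacacgttgataatggca

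After Me1 came Gm7049 (r = 0.86), whose probe shares a listed accession with the Me1 probe, and Kcmf1 (r = 0.81). For Scd2 they included Sc4mol (r = 0.85, now Msmo1), an enzyme of cholesterol synthesis, and Fam125b (r = 0.82). For Scd3 they were Acr (r = 0.91), Ap2a1 (r = 0.91) and an unnamed transcript. For Fads1 they were Mmp17 (r = 0.82), Mfap4 (r = 0.78) and Arhgef17 (r = 0.77), for Fads2 LOC641106 (r = 0.73), E130303B06Rik (r = 0.73) and Cbx6 (r = 0.72), and for Fads3 Gng5 (r = 0.88), Tmem208 (r = 0.83) and Nbn (r = 0.82). These values describe 36 to 39 arrays that share diets, scan dates and cell makeup.

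Cell type markers were described in the same fits. Their medians between the control diets cannot be set against Scd1, which was selected on that contrast. In HFC against LFC 9 of 10 general adipocyte markers had a difference below 0, with a median of -0.35 and Adipoq at -0.42 (SE 0.65). Their summed level was 8.45 to 11.03 on LFC and 7.22 to 10.6 on HFC. Of the brown adipocyte markers 8 of 9 were below 0 (median -0.55), with summed levels of 3.64 to 9.98 and 2.21 to 8.60. Of the macrophage markers 8 of 11 were above 0 (median 0.10), with summed levels of 3.82 to 6.24 and 3.36 to 7.13. Of all probes 45.8% were below 0 and 54.2% above 0 in this contrast.

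The 6 skeletal muscle markers had a median of -0.13, the 5 neutrophil markers measured were all above 0 (median 0.61), and 3 of 6 mesothelial markers were measured (median 0.17). Against HFC 47.2%, 48.7% and 53.9% of all probes were above 0 for HF5, HF20 and HF75. All 5 neutrophil markers were above 0 at every dose, with medians of 1.01, 1.14 and 1.60, and none passed the test. Their summed level ran from 1.12 to 10.3 on LFC, 0.42 to 8.41 on HFC, 0.13 to 9.93 on HF5, 1.91 to 10.2 on HF20 and 0.91 to 8.55 on HF75. The medians of that sum were 5.23, 6.04, 5.99, 5.65 and 7.59 in that order. By them HF5 and HF20 did not lie above HFC, whose median takes in Day 1 to Week 0. The lowest sum came from Week 6 on HFC and from an array titled BA or BAT on each other diet. A fit of these markers without those arrays is not given here. The summed mesothelial level was 4.52 on LFC Day 10 and 4.49 on HFC Week 12, against a median of -1.80, and these are the arrays on which Ucp1 was low. The part of these cell types in the differences of the desaturases was not tested. Without HF20 Week 15 the HFC against LFC difference of Scd1 was -3.47 (SE 0.54), and without the 9 arrays titled BA or BAT it was -3.49 (SE 0.63).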

How the data were processed

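The authors hybridised RNA of samples labelled as brown macrophages (SVCs) on a custom single-colour Agilent mouse array and deposited the scanner output, whose intensity values (processed signal, background-corrected) come from Agilent Feature Extraction, version 9.1 per the submitters' processing notes. The deposited fold-change table served for probe symbols and sequences, and its value columns, the authors' log2 changes between diets, were not used. Spots flagged as outliers were left out, spots of a probe averaged, log2 taken and the array's 75th percentile subtracted. Of 40628 probes on each array, 34043 were well above background on at least 6 arrays and were kept. The 75th percentile of the signal ran from 18.1 to 3974 and 31.2% to 98.03% of an array's spots were well above background.

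Diet differences were fitted with limma 3.58.1 (R 4.3.3, statmod 1.5.0) over all 39 arrays with the time label as a block, and slopes per doubling of days with diet as a term, with Benjamini-Hochberg adjustment and a threshold of 0.05, two-sided. Tables were handled with Python 3.11.15, pandas 2.3.3 and numpy 2.4.6 and figures with matplotlib 3.10.9. The fits were also run on simulated data with planted changes, whose recovery rates are not given here. A test not passed therefore does not show that a gene was unchanged. Members, lists and markers were chosen with earlier results of these data known. Named genes were the members with every probe, the pathway and marker lists and, per member, the 3 genes most alike. The same-time LFC and HFC arrays had correlated deviations (r over 0.1) at 5 of 10 times (r from -0.54 to 0.81), so a time label does not pair them by this check. Alternatives were other scalings, background correction, filters, array weights, slide and scan date blocks, left-out time points and left-out arrays. Those without LFC Day 10 and HFC Week 12, without the BA or BAT arrays and HFC Week 6, without HF20 Week 15 and with Scd1 read by LOC677051 were chosen after seeing the data. RefSeq gave gene positions. Some of the genes most alike are not reported here.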

Additional observations from a re-analysis of the deposited data

Results flagged for a closer look

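Of 32 groups of 4 to 10 arrays tested, 2 held a value far from the others, and chance flags about 1 in 20 such groups. Scd1 on HF75 Week 15 had a level of 6.55, and the nearest of the other 5 HF75 arrays had 3.94. The spot was saturated, the array is titled BA or BAT and Adipoq was at 6.47 there. The LOC677051 probe, the second reading of Scd1, had 1.40 on HF20 Week 12, and the nearest of the other HF20 arrays had -1.35, among 5 with a value. The Scd1 probe was saturated on that array at 6.16, Adipoq was at 6.15, and its diet label conflicts with its title.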

How the results depend on the processing

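The 60 estimates of the members were recomputed under the alternatives, which gave 1712 values. Of these 1572 had the direction of the reported value, 134 the opposite one, and 90 moved by over 1 SE. The other 6 compare late with early arrays and are not slopes. No reported value was past the threshold, and 2 alternatives came past it, both for Scd1 in HF75 against LFC (array weights, and without Week 15). The number of probes past the threshold was 0 in every tested comparison. For HF75 against HFC it became 1 lower with array weights, 3 higher without the 9 arrays titled BA or BAT, and 2 higher and 1 lower without these and HFC Week 6. For HF75 against LFC it became 2 higher and 5 lower with array weights, and over the left-out time points 0 to 9 higher and 0 to 1 lower, all without Week 15. For HF75 against HF5 it became 3 higher and 102 lower without the arrays titled BA or BAT and HFC Week 6. For the slope over LFC and HFC it became 5 lower with quantile normalization, 5 higher and 7 lower among the 9854 probes well above background on all arrays, 29 higher and 211 lower for late against early, 13 higher and 4 lower without the arrays titled BA or BAT and HFC Week 6, and 0 to 1 lower over the left-out time points (Day 1 and Week 15). The causes were not tested. Without the time label as a replicate block the number was 0 in each diet comparison. The t-test of the methods, with time points as replicates, also called 0 probes after Benjamini-Hochberg in each diet comparison.

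The scaling moved the median difference of all probes in HFC against LFC from 0.05 to -0.27 with normexp and to 0.23 with the percentile of probes detected on all arrays, so a Fads difference of that size has no settled direction. Scd1 in HFC against LFC stayed between -3.82 and -2.63 under all 32 alternatives. Saturated spots bound Scd1 from below on 4 arrays, and Scd3, Fads2 and LOC677051 lie near background on some arrays.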
